A study of Mus musculus with 3 samples.

Results

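RNA polymerase II, the enzyme that transcribes every protein-coding gene, was examined together with Mediator and the factors that start and lengthen its transcripts, in muscle stem cells of the mouse. The members were chosen by symbol: rows that begin with Polr2, Gtf2, Med followed by a digit or Taf followed by a digit, and the elongation and TATA-binding genes Tbp, Hexim1, Larp7, Supt4a, Supt6, Nelfa, Ell and Ell2. This gave 90 members among the 20308 rows of the table. Supt5h has no row under that symbol. RNA was sequenced from satellite cells of hindlimb muscle, sorted by ZsGreen fluorescence (about 200000 cells per sample) from Pax7-ZsGreen mice aged 3 months, and the 3 libraries formed 1 group with no comparison between conditions. ZsGreen is a green fluorescent protein, and Pax7 is the transcription factor that marks satellite cells. Muscles of several mice were pooled and digested with enzymes, and the sample labels name the tibialis anterior whereas the series description names hindlimb muscles.

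To start a transcript, the TATA-binding protein within TFIID engages the promoter, TFIIA and TFIIB join it, and polymerase arrives with TFIIF. TFIIE and TFIIH then open the DNA. Mediator passes signals from DNA-bound regulators to this assembly, and its detachable kinase module restrains it. After a short distance polymerase is held by the pausing factors DSIF and NELF until the kinase P-TEFb, itself kept inactive by HEXIM1 and the 7SK RNA that LARP7 protects, releases it. Resting satellite cells are small and low in RNA, and this machinery is used by every cell type.

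Values are TPM, the share of a gene among all transcripts after allowing for transcript length, on a scale with the same sum in each library, so levels of different genes can be set side by side. They are shares, and fewer cells of a type and less RNA per cell cannot be told apart. The deposited values keep no read totals and the depth of each library is unknown. Mean ± SD is over 3 libraries (n = 3). It is withheld for genes listed at 0 in any library, because genes that every cell uses are also listed at 0 and such a value can be a failed estimate. The labels do not say if each library had its own pool of mice, and the p-values therefore cover only how these samples vary, which may be technical.

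Most of the machinery was present at moderate levels. Of the 90 members, 83 were above 0 in at least 1 library, and 67 of these 83 (80.7%) were above 1 TPM in a limma test adjusted by Benjamini-Hochberg over every gene tested, beside 60.8% of the 12822 genes tested in the table. Above 10 TPM the test placed 42 members (50.6% of those tested), beside 38.2% of all genes tested. Below 10 TPM it placed 2 members, Med12l and Gtf2ird2, beside 17.5% of all genes tested. The median of the 90 means was 22.0 TPM, against 11.5 TPM over the genes tested. Over all rows, 7486 of which were at 0 in every library, it was 2.24 TPM. Together the members held 3717, 3915 and 3979 TPM in replicates 1, 2 and 3, or 0.387% ± 0.0137 of all TPM, and none of them was among the 100 most abundant genes.

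Larp7, which protects the 7SK RNA that helps keep P-TEFb inactive, and Taf1d, a factor of RNA polymerase I, had the highest levels. By mean, 12 members reached at least 100 TPM, 49 lay between 10 and 100 TPM, 20 between 1 and 10 TPM and 9 below 1 TPM. Larp7, the protein that stabilises 7SK RNA (chromosome 3, 127536714 to 127553349, GRCm38), stood first with 253, 276 and 322 TPM in the 3 libraries. Taf1d was next with 252, 258 and 334 TPM. The others of at least 100 TPM were Gtf2f1, Gtf2a2, Taf7, Taf15, Supt6, Med13, Taf9, Ell2, Polr2a and Hexim1, with means between 104 and 180.2 TPM. At the other end, 7 members were listed at 0 in every library: Polr2k, Taf7l, Gtf2a1l, Gtf2h3, Gtf2h4, Med11 and Med18. Of these, Taf7l and Gtf2a1l are paralogues known for use in male germ cells, whereas the other 5 encode core subunits that cells in general need. Among members above 0 in every library, the highest mean was at least 10 times the lowest in 4 of the 13 complexes with more than 1 such member, namely TFIID, TFIIH, the elongation factors and the polymerase I factors. Counting members listed at 0 as 0, it was so in 10 of 14 complexes.

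**Figure D1:**
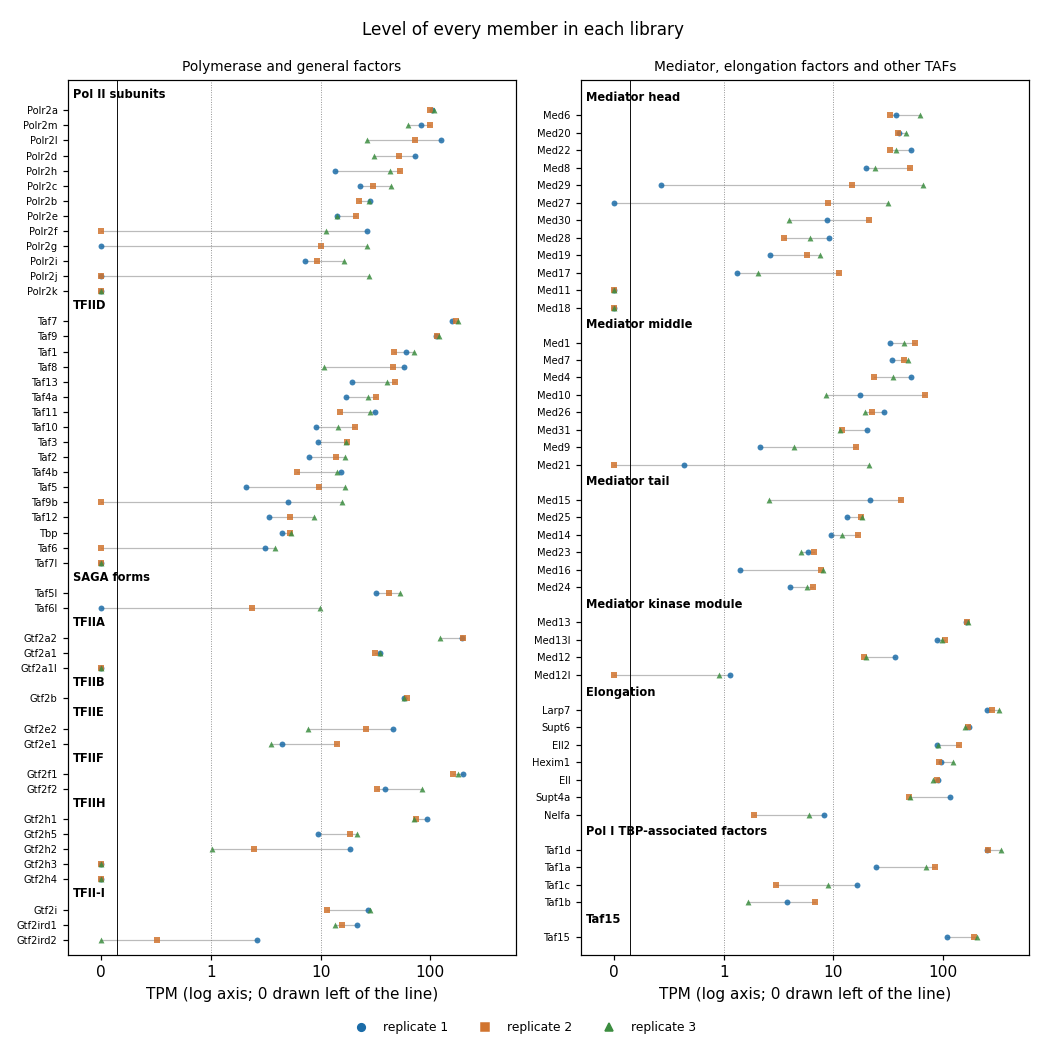
Level of each of the 90 members in each of the 3 libraries, in TPM on a log axis with 0 drawn left of the solid line; symbols mark the replicates, grey bars join a gene's libraries, and dotted lines mark 1 and 10 TPM. The libraries of Polr2a (99.8 to 109 TPM) and Med13 (159.9 to 170 TPM) lie close together and those of Taf15 (109 to 202 TPM) farther apart, whereas Polr2j and Med27 are listed at 0 in part of the libraries.

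The promoters of Polr2a and Larp7, both among the 12 highest members, and of the paralogues Taf7l and Gtf2a1l, both listed at 0 in all 3, are shown as examples. They do not stand for the other abundant members or the other members listed at 0. Each line gives the 250 bases before the RefSeq transcription start (GRCm38.p6), read 5′ to 3′ on the strand of the gene. Capitals mark matches on either strand to the TATA box (TATAAA) or the GC box bound by Sp1 (GGGCGG).
Polr2a (chr11:69758634-69758883, minus strand): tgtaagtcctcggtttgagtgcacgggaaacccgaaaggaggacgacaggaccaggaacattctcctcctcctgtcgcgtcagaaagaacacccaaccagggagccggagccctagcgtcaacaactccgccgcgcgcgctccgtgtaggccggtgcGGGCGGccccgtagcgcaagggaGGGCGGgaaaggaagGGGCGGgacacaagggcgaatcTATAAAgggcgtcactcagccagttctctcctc
Larp7 (chr3:127553350-127553599, minus strand): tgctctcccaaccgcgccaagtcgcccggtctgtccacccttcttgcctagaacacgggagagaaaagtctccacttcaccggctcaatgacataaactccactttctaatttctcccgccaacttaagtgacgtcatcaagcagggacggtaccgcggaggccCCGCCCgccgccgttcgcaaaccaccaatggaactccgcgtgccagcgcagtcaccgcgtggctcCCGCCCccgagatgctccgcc
Taf7l (chrX:134476491-134476740, minus strand): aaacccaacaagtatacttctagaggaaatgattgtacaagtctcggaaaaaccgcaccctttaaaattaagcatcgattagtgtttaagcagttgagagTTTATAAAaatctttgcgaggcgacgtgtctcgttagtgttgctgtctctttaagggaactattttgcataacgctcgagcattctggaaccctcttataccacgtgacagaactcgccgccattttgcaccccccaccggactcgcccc
Gtf2a1l (chr17:88668410-88668659, plus strand): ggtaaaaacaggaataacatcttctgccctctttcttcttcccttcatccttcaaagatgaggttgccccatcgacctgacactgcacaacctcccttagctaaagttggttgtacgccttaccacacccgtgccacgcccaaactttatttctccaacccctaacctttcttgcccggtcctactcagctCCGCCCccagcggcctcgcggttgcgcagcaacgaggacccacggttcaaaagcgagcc
The window of Polr2a held 3 GC boxes and a TATA box whose first base lies 33 bases before the start, and that of Larp7 held 2 GC boxes. In the window of Taf7l the match lay 150 bases before the start, where a TATA box on 1 strand overlaps another on the opposite strand. The window of Gtf2a1l held 1 GC box. The windows held 23 CpG dinucleotides for Polr2a, 24 for Larp7, 14 for Taf7l and 13 for Gtf2a1l. Other members differed from these examples. Gtf2a2, with a mean of 172 TPM, had 13 CpG dinucleotides per window and no GC box. Gtf2h3, listed at 0 in all libraries, had 33 per window. Of the 90 members 78 had a window, and these were searched on both strands beside the 15171 genes of the table and the 9658 genes tested that had one. TATAAA occurred in 12 of the 78 (15.4%), in 13.3% of the genes of the table and in 8.31% of the genes tested. GGGCGG occurred in 52 (66.7%), against 48.5% of the table and 63.2% of the genes tested. The ETS motif CCGGAAG occurred in 20 (25.6%), against 10.7% and 14.8%, and the consensus NRF1 motif in 0, against 1.30% and 1.76%. The median number of CpG dinucleotides was 19 in the members, 11 in the table and 15.5 in the genes tested. These are matches of letters and were not tested, and they say nothing of binding.

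RNA polymerase II itself has a catalytic pair, Polr2a and Polr2b, and smaller subunits, 5 of which it shares with polymerases I and III. Of its 13 members, 9 were above 1 TPM and 7 of these above 10 TPM, with a median of 25.97 TPM over the means. Of the 12 tested these were 75.0% and 58.3%, beside 60.8% and 38.2% of all genes tested. Polr2a, the largest subunit, whose tail of heptad repeats is phosphorylated as transcription proceeds (chromosome 11, 69733997 to 69758637), had 105, 99.8 and 109 TPM (104 ± 4.46 TPM, limma adjusted p = 2.31e-11 against 1 TPM). It lay at the 88.5th percentile of the genes tested. Polr2b, which completes the catalytic centre, had 27.9, 22.3 and 27.8 TPM, lower than Polr2a in every library. Polr2m, which encodes the polymerase-associated protein Gdown1, was next to Polr2a with 82.7, 98.2 and 62.2 TPM. Polr2d, which forms the stalk with Polr2g, had 72.9, 52.2 and 30.5 TPM. Polr2g was listed at 0 in replicate 1 and had 10.03 and 26.2 TPM in replicates 2 and 3. Polr2c had 23.04, 30.1 and 43.7 TPM, and Polr2i had 7.23, 9.26 and 16.3 TPM. Polr2j, the partner of Polr2c in the assembly platform, was listed at 0 in replicates 1 and 2 and had 27.5 TPM in replicate 3.

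The 5 shared subunits spanned the range from 0 upward. Polr2l had 125, 72.5 and 26.3 TPM, a spread wider than that of Polr2a, and 27.2% of the 31-base words of its longest transcript occur in other annotated genes. Over 20% of such words were shared in 18 members, whose levels are uncertain where reads could be divided between copies or overlapping genes: Med10 (98.6%), Taf10 (53.1%), Med31 (37.6%), Polr2i (37.4%), Med20 (35.8%), Taf9 (33.1%), Taf6 (31.3%), Polr2k, Polr2h, Supt4a, Polr2l, Med21, Polr2c, Larp7, Med7, Taf11, Taf1d and Taf5l. Polr2h had 13.5, 52.5 and 42.8 TPM, lowest in replicate 1. Polr2e had 14.1, 21.0 and 14.1 TPM, and its libraries lay close together. Polr2f had 26.7 and 11.3 TPM in replicates 1 and 3 and was listed at 0 in replicate 2. Polr2k, the shortest member by exon length (624 bases), was listed at 0 in all 3 libraries, and 29.6% of its 31-base words occur in other genes. Polr2f, Polr2g and Polr2j were not decided against 1 TPM (limma adjusted p = 0.441, 0.462 and 0.76), and the side of 1 TPM on which each fell changed when replicate 1 (Polr2f and Polr2j), 2 (Polr2j) or 3 (Polr2g) was left out. Polr2f was above 1 TPM without replicate 2 (limma adjusted p = 6.24e-16) and Polr2g without replicate 1 (2.49e-10), the libraries that list them at 0. These calls follow from leaving out the 0. A fit on 2 libraries takes its variance largely from the limma prior, and its p-values are not comparable with those of all 3 libraries.

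TFIID recognises the promoter through TBP and a set of TBP-associated factors. Of its 17 members, 14 were above 1 TPM and 7 above 10 TPM. Those were 87.5% and 43.75% of the 16 tested, beside 60.8% and 38.2% of all genes tested. The median over the TFIID means was 14.6 TPM. Tbp, which binds the TATA box (chromosome 17, 15499888 to 15528379), was low and even, with 4.44, 5.28 and 5.40 TPM (5.04 ± 0.523 TPM, limma adjusted p = 0.0261 against 1 TPM). The call for Tbp was lost without replicate 2 (limma adjusted p = 0.0795) and without replicate 3 (0.0548). Its relative Tbpl1 had 38.0, 31.5 and 48.8 TPM, and Tbp lay below Tbpl1 in 3 of 3 libraries, with a log2 (TPM + 0.1) difference of −2.93 ± 0.32 (7.60-fold). Tbpl2, the form used in oocytes, was listed at 0.

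Among the TBP-associated factors, Taf7 and Taf9 were highest. Taf7, an inhibitor of the acetyltransferase activity of Taf1, had 159, 170.4 and 179.6 TPM (169.7 ± 10.3 TPM). Taf9, a histone-fold subunit, had 113, 114 and 119.8 TPM (116 ± 3.68 TPM), but 73.8% of its exon length overlaps the exons of Ak6 on the same strand. The level of Taf9 is therefore uncertain. Taf1, the scaffold, had 60.5, 46.2 and 71.2 TPM. Taf8, Taf13, Taf4a and Taf11 were also above 10 TPM, with means between 24.8 and 37.9 TPM. Taf8 had 57.5, 45.6 and 10.8 TPM and was not called above 10 TPM when no filter was used. Taf10, Taf3, Taf2, Taf4b, Taf5 and Taf12 were above 1 TPM but were not decided against 10 TPM, with means between 5.80 and 14.7 TPM. Taf5 had 2.09, 9.56 and 16.7 TPM and was no longer above 1 TPM without replicate 3 (limma adjusted p = 0.0844), nor was Taf12 (0.114), which had 3.36, 5.29 and 8.74 TPM.

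Paralogues of these factors differed from each other in most libraries. Taf9b was listed at 0 in replicate 2 and had 5.03 and 15.6 TPM in replicates 1 and 3, below Taf9 in each. With replicate 2, which lists it at 0, left out, Taf9b was above 1 TPM (limma adjusted p = 0.000142). That call follows from the value left out. Taf4a had 17.1, 32.0 and 27.1 TPM and Taf4b, known for its role in ovary and testis, had 15.4, 6.04 and 14.2 TPM. Taf4a lay above Taf4b in 3 of 3 libraries, with a log2 difference of 1.15 ± 1.14 and of 0.15 in replicate 1. Taf6 had 3.11 and 3.84 TPM in replicates 1 and 3 and was listed at 0 in replicate 2. Its SAGA counterpart Taf6l was listed at 0 in replicate 1 and had 2.36 and 9.77 TPM in replicates 2 and 3, so the pair had no common direction. Taf5l, which replaces Taf5 in the SAGA coactivator, had 32.3, 42.2 and 53.3 TPM, and Taf5 lay below Taf5l in 3 of 3 libraries, with a log2 difference of −2.56 ± 1.17 (5.91-fold). The SAGA form was thus listed as the higher of the Taf5 pair. Its level is uncertain, because 20.2% of the 31-base words of Taf5l occur in another annotated gene, Gm13316. Taf5 itself varied from 2.09 to 16.7 TPM between libraries.

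The other general factors were uneven within each complex. TFIIA was led by Gtf2a2, the small subunit, with 194, 200.1 and 121.5 TPM. Gtf2a1, which is cleaved into its large subunits, had 34.8, 31.2 and 34.6 TPM, lower than Gtf2a2 in every library. Gtf2b, the single-subunit TFIIB that places polymerase at the start site (chromosome 3, 142765045 to 142783606), had 58.04, 61.1 and 56.9 TPM, and its libraries lay close together (58.7 ± 2.18 TPM). TFIIF, which travels with polymerase, had Gtf2f1 at 198, 162 and 180.3 TPM and Gtf2f2 at 38.4, 32.7 and 83.1 TPM. Gtf2f1 lay above Gtf2f2 in 3 of 3 libraries, with a log2 difference of 1.93 ± 0.70 (3.81-fold). TFIIE was lower: Gtf2e1 had 4.42, 13.96 and 3.55 TPM and Gtf2e2 had 45.3, 25.8 and 7.66 TPM. Gtf2e1 lay below Gtf2e2 in 3 of 3 libraries, with a log2 difference of −1.77 ± 1.36, and it was not above 1 TPM without replicate 2 (limma adjusted p = 0.201).

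TFIIH, which opens the promoter and also serves DNA repair, had 5 members here. Gtf2h1 had 94.02, 73.7 and 70.8 TPM and was the only TFIIH member called above 10 TPM by the test. Gtf2h5, the smallest subunit, had 9.44, 18.6 and 21.4 TPM. Gtf2h2 had 18.5, 2.48 and 1.02 TPM and was not decided against 1 TPM (limma adjusted p = 0.183), being highest in replicate 1. Without replicate 3 Gtf2h2 was above 1 TPM (limma adjusted p = 0.00325). Gtf2h3 and Gtf2h4, subunits of the same core, were listed at 0. The other TFIIH genes, the helicases Ercc2 and Ercc3 and the kinase module genes Cdk7, Ccnh and Mnat1, were all above 1 TPM, with means between 8.35 and 14.7 TPM. Of the TFII-I family, signal-regulated DNA-binding proteins, Gtf2i had 27.1, 11.3 and 28.0 TPM and Gtf2ird1 had 21.6, 15.7 and 13.4 TPM, with no common direction between them. Gtf2i was not called above 10 TPM with no filter, without replicate 1 or without replicate 3. Gtf2ird2 had 2.64 and 0.32 TPM in replicates 1 and 2 and was listed at 0 in replicate 3. It was below 10 TPM (limma adjusted p = 0.0329).

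**Figure D2:**
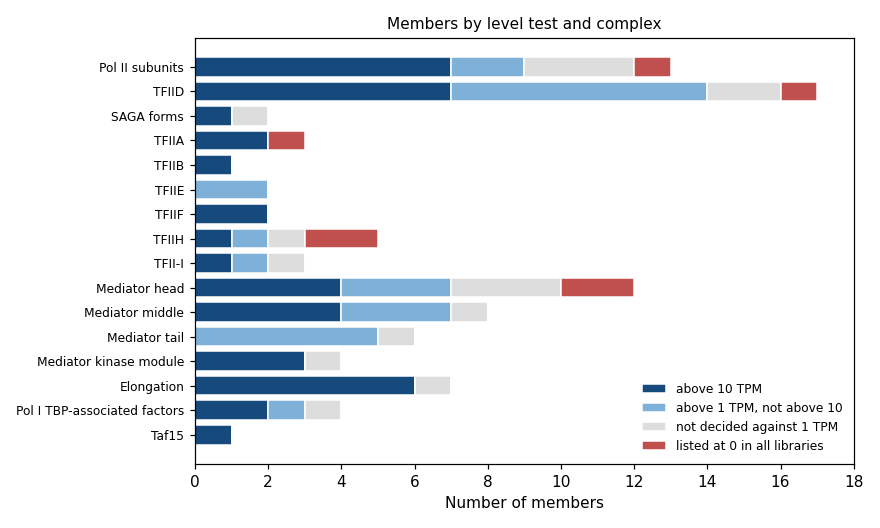
Number of members in each complex by the limma level test: above 10 TPM, above 1 TPM but not above 10 TPM, not decided against 1 TPM, and listed at 0 in all 3 libraries. The Mediator tail (5 of 6 members above 1 TPM) and TFIIE (2 of 2) have no member called above 10 TPM. All members of both were not decided against 10 TPM, and none was called below it. Of the elongation factors, 6 of 7 are above 10 TPM. Of all genes tested, 60.8% are above 1 TPM and 38.2% above 10 TPM.

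Mediator is built of a head that touches polymerase, a middle, a tail that meets activators, and a kinase module. Of its 30 members, 22 were above 1 TPM and 11 above 10 TPM. Those were 78.6% and 39.3% of the 28 tested, beside 60.8% and 38.2% of all genes tested. The share above 10 TPM was thus close to that of all genes. The median over the Mediator means was 15.5 TPM. The kinase module held the highest members and the tail had a median of 9.31 TPM. No tail member was called above 10 TPM by the test, and all 6 were not decided against it. Med13, which links the kinase to the core (chromosome 11, 86267033 to 86357602), had 159.9, 166 and 170 TPM (165 ± 5.10 TPM), the smallest coefficient of variation of all members of at least 1 TPM (3.08%). Its paralogue Med13l had 87.7, 104 and 98.5 TPM, and Med13 lay above it in 3 of 3 libraries, with a log2 difference of 0.78 ± 0.09 (1.71-fold). Med12, the activator of the kinase, had 36.2, 19.0 and 20 TPM and was not called above 10 TPM without replicate 1. Med12l had 1.15 and 0.9 TPM in replicates 1 and 3 and was listed at 0 in replicate 2. The kinase partners Cdk8, Cdk19 and Ccnc had means of 18.5, 5.51 and 18.7 TPM, and Cdk8 lay above Cdk19 in 3 of 3 libraries, with a log2 difference of 1.87 ± 1.02 (3.65-fold). Med13 was thus above its kinase partners in every library.

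In the head, 7 of 12 members were above 1 TPM and 4 above 10 TPM. Of these 12, 10 were tested, and the shares over all genes tested were 60.8% and 38.2%. Med6 had 37.0, 32.7 and 61.9 TPM, Med20 had 39.5, 38.6 and 45.9 TPM, and Med22 had 51.0, 32.6 and 37.4 TPM. These 3 and Med8 (19.8, 49.4 and 23.7 TPM) were the head members called above 10 TPM by the test. Med29 had 0.27, 14.7 and 65.8 TPM, the largest ratio of highest to lowest library among members above 0 in all (244-fold). It was not decided against 1 TPM (limma adjusted p = 0.0834). With its lowest library, replicate 1, left out, Med29 was above 1 TPM (limma adjusted p = 1.04e-17, 2 libraries). Med27 was listed at 0 in replicate 1 and had 8.98 and 31.2 TPM in replicates 2 and 3. It too was above 1 TPM without replicate 1 (limma adjusted p = 1.60e-10, 2 libraries). Both calls follow from the value left out. Med29 and Med27 were thus both lowest in replicate 1. Med17, the scaffold of the head, had 1.31, 11.1 and 2.05 TPM and was not decided (limma adjusted p = 0.243). Med30, Med28 and Med19 were above 1 TPM with means of 11.2, 6.27 and 5.34 TPM, while Med11 and Med18 were listed at 0. Leaving out replicate 2 or 3 ended the call for Med19, as leaving out replicate 1 did for Med28.

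In the middle, 7 of 8 members were above 1 TPM and 4 above 10 TPM, beside 60.8% and 38.2% of all genes tested. Med1, the subunit that binds nuclear receptors, had 32.6, 55.7 and 44.0 TPM, Med7 had 34.3, 44.2 and 48 TPM, and Med4 had 50.7, 23.6 and 34.6 TPM. Med26, which also recruits elongation factors, had 28.6, 22.5 and 19.2 TPM. Those 4 were above 10 TPM in every library. Med10 had 17.4, 68.1 and 8.47 TPM, but 92.8% of its exon length overlaps exons of a gene on the opposite strand, Gm26819, and the strand setting is not given in the sources used here. Med21 had 0.43 and 21.1 TPM in replicates 1 and 3 and was listed at 0 in replicate 2. Med9 had 2.14, 15.9 and 4.41 TPM and was not above 1 TPM without replicate 2 (limma adjusted p = 0.407). Med31 had a mean of 14.5 TPM.

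In the tail, Med15, a target of several activators, had 21.7, 41.5 and 2.58 TPM, a 16.1-fold range. Med25 had 13.2, 17.8 and 18.4 TPM and Med14, the backbone that joins the modules, had 9.55, 16.8 and 11.9 TPM. Med23 had 5.81, 6.71 and 5.07 TPM and Med24 had 3.99, 6.52 and 5.79 TPM, both low and even. Med16 had 1.40, 7.68 and 8.02 TPM and was not decided against 1 TPM (limma adjusted p = 0.0712). Med16 was above 1 TPM with a robust prior (limma adjusted p = 0.0260) and without replicate 1 (0.000818), and Med24 lost its call without replicate 2 (0.0875).

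Factors of elongation and of pausing and its control formed the highest group by median, apart from Taf15 and the TFIIF pair. Of 7 members, 6 were above 10 TPM (85.7%, beside 38.2% of all genes tested). The median was 104 TPM, with little spread in the sum over libraries (822, 814 and 832 TPM). Supt6, a histone chaperone that rides with polymerase (chromosome 11, 78206746 to 78245987), had 172, 168 and 159.7 TPM (167 ± 6.28 TPM). Hexim1, the inhibitor of P-TEFb (chromosome 11, 103116231 to 103119725), had 95.8, 92.4 and 124 TPM. Larp7, at 284 ± 34.9 TPM, exceeded Hexim1 in every library, and 23.5% of the 31-base words of Larp7 occur in other genes. Ell had 89.3, 87.6 and 81.4 TPM and Ell2 had 87.7, 139 and 90.4 TPM, and these elongation factors had no common direction (log2 difference −0.26 ± 0.36). Supt4a, the small subunit of DSIF, had 116, 49.1 and 49.6 TPM, with replicate 1 apart from the others, and 28.3% of its 31-base words occur in other genes such as Supt4b. Its partner is listed as Supt5, the current name of Supt5h in RefSeq, and had 64.3, 88.8 and 123 TPM, a row looked up after the table was seen. Nelfa was the low member with 8.13, 1.88 and 6.02 TPM and was not decided against 1 TPM (limma adjusted p = 0.0575). It was above 1 TPM with a robust prior (0.0201), with a pseudocount of 0.01 (0.0424), with a filter on mean level (0.0399) and without replicate 2 (0.00465).

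Genes of polymerase I and a relative of TBP-associated factors also met the symbol rule. Taf1a, Taf1b, Taf1c and Taf1d belong to the TBP complex of polymerase I, which transcribes ribosomal RNA. Taf1d, at 282 ± 45.5 TPM (chromosome 9, 15306214 to 15316991), has 21.8% of its 31-base words in other genes too, and its exons overlap small genes annotated within it. Taf1a had 24.5, 83.7 and 69.8 TPM, Taf1c had 16.3, 2.98 and 8.84 TPM, and Taf1b had 3.73, 6.83 and 1.67 TPM. Taf1b was not decided against 1 TPM (limma adjusted p = 0.154) but was above it without replicate 3 (0.0421). Taf1d lay above the other 3 in every library. Taf15, an RNA-binding protein found with a part of TFIID, had 109, 192 and 202 TPM.

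Other genes of the same pathway were read from lists of 86 genes that the symbol rule does not take. Of the 84 tested, 76 (90.5%) were above 1 TPM and 45 (53.6%) above 10 TPM by the same test, beside 60.8% and 38.2% of all genes tested, and the median of the 86 was 20.6 TPM. In P-TEFb and the 7SK complex 8 of 9 were above 1 TPM. Cdk9, the P-TEFb kinase, had 135, 181 and 181 TPM, and its cyclin Ccnt2 had 113, 119 and 143 TPM. Hexim1 lay below Cdk9 in 3 of 3 libraries, with a log2 difference of −0.67 ± 0.26 (1.59-fold). Hexim2, the paralogue of Hexim1, had 2.15 TPM in replicate 2 and was listed at 0 in the others. The cyclin Ccnt1, at 46.1 ± 7.11 TPM, lay below Ccnt2 in 3 of 3 libraries, with a log2 difference of −1.44 ± 0.39 (2.71-fold). Ccnt2 was thus the higher P-TEFb cyclin. All 3 other NELF subunits were above 1 TPM, with means of 24.8 TPM for Nelfb, 23.3 TPM for Nelfe and 8.39 TPM for Nelfcd.

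Elongation complexes outside the rule held some of the highest pathway genes. All 6 PAF complex genes were above 10 TPM, led by Paf1 with 450.4, 245 and 476 TPM, Rtf1 at 62.9 ± 4.33 TPM and Ctr9 at 53.9 ± 7.89 TPM. In the super elongation complex 5 of 7 were above 1 TPM (83.3% of those tested, beside 60.8% of all genes tested). Eaf1, a partner of the ELL proteins, had 172, 267 and 235 TPM, Aff4, the scaffold, had 186, 217 and 171 TPM, and Aff1 averaged 55.8 ± 2.16 TPM. Eaf2 was listed at 0 in replicate 1 and had 6.77 and 3.83 TPM in the others, and Ell3 was listed at 0. All 5 FACT and TFIIS genes were above 1 TPM, with Supt16 at 140.4 ± 17.97 TPM, Ssrp1 at 106 ± 25.8 TPM and Tcea1 at 91.6 ± 18.5 TPM. Tcea2 (6.42, 15.3 and 1.81 TPM) lost its call with a pseudocount of 1, with no filter and without replicate 2, as did the Mediator kinase Cdk19.

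Regulators of TBP, SAGA and the polymerase tail were mixed. Above 1 TPM were 84.6% of the SAGA genes and 75.0% of the tail phosphatase and assembly genes, beside 60.8% of all genes tested. Btaf1, which removes TBP from DNA, had 123, 161 and 136 TPM, far above Tbp in every library, and Drap1, a subunit of the repressor NC2, averaged 82.9 ± 20.8 TPM. Of 13 SAGA genes 11 were above 1 TPM, led by Usp22 at 71.2 ± 18.4 TPM, Atxn7 at 70.7 ± 5.04 TPM and Atxn7l3 at 53.7 ± 8.11 TPM. Supt3 and Tada3 were listed at 0 in replicates 2 and 3 and had 7.97 and 5.51 TPM in replicate 1. Of 12 tail phosphatase and assembly genes 9 were above 1 TPM, led by Ctdp1, the phosphatase that recycles polymerase, at 132 ± 32.3 TPM, Ctdsp2 at 82.7 ± 8.69 TPM and Ctdsp1 at 53.5 ± 14.1 TPM. The assembly genes not decided were Rpap1 (0.29, 0 and 0 TPM), Rpap2 (7.92, 4.26 and 1.86 TPM) and Rpap3 (10.9, 1.82 and 3.17 TPM).

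The other nuclear polymerases stood close by. Of 10 subunits particular to polymerase III, all 10 were above 1 TPM and 4 above 10 TPM, with a median of 15.4 TPM, and of 6 particular to polymerase I, 5 were above 1 TPM and 3 above 10 TPM, with a median of 31.3 TPM. For the 8 polymerase II members that are not shared, these counts were 6 and 5, with a median of 29.1 TPM. All of these subunits were tested. Over all genes tested, 60.8% were above 1 TPM and 38.2% above 10 TPM. The calls for Polr3a (1.60, 7.27 and 14.4 TPM) and Polr3c (5.41, 6.36 and 2.84 TPM) were lost with a pseudocount of 1, with no filter and without replicate 2. Without replicate 1 Polr3c lost its call, and without replicate 3 Polr3a and Polr3b did, as did the assembly gene Gpn3. Polr3d, at 147 ± 25.4 TPM, was the highest of the polymerase III genes, followed by Polr3e at 40.02 ± 4.38 TPM and Polr3f at 24.2 ± 4.89 TPM. Cd3eap, at 119 ± 21.3 TPM, was the highest of polymerase I, followed by Twistnb at 78.9 ± 17.5 TPM and Polr1b at 45.6 ± 22.7 TPM, and Znrd1 was listed at 0 in replicate 3 (14.6 and 24.7 TPM in the others). Polr1c and Polr1d, which both enzymes use, averaged 139.9 ± 56.8 and 246 ± 22.8 TPM. The difference between the polymerases was not tested.

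Of the 20 pairs of paralogues and partners, 19 had both genes in the table, and 12 of these were above 0 in every library. Within these 12, 10 had the same direction in all 3 libraries, and Ell against Ell2 and Gtf2i against Gtf2ird1 did not. The widest difference was that of Tbp below Tbpl1, and Polr2a lay above Polr2b by 2.01 ± 0.13 on the log2 scale (4.02-fold). For each of the 10 the exact sign-flip permutation p (two-sided) was 0.25. With 3 libraries no lower value can occur, and the threshold of 0.05 is out of reach. In the remaining 7 pairs a gene was listed at 0 in at least 1 library and no fold is given.

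**Figure D3:**
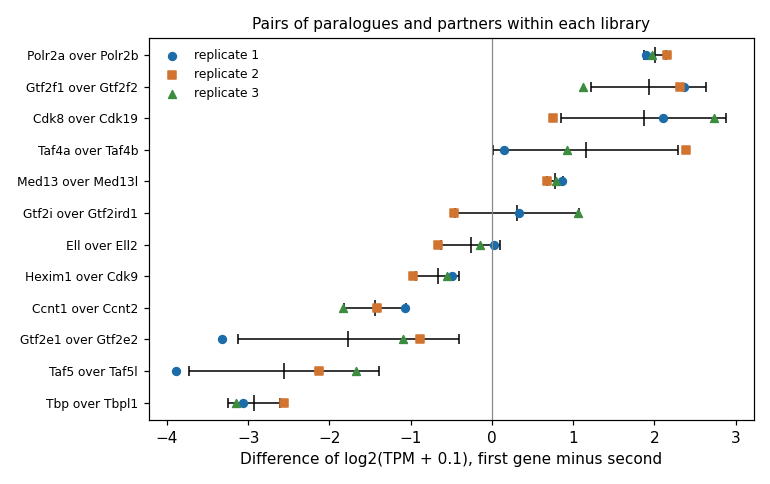
Difference of log2(TPM + 0.1) between the genes of 12 pairs that were above 0 in every library, first gene minus second; symbols are replicates, the vertical bar is the mean and the whiskers are 1 SD (n = 3). Tbp against Tbpl1 lies at −2.93 and Polr2a against Polr2b at 2.01, whereas Ell against Ell2 and Gtf2i against Gtf2ird1 cross 0.

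Spread between libraries was smaller in the higher members. Over genes of at least 1 TPM that were above 0 in every library, the median coefficient of variation was 34.0% in 73 members and 29.96% in all 9052 such genes. It was 11.1% over the 12 members of at least 100 TPM (11.8% over all such genes), 34.9% over the 46 members between 10 and 100 TPM (29.1%) and 63.7% over the 15 members between 1 and 10 TPM (56.8%). With genes listed at 0 in some libraries included, the medians were 37.6% over 81 members and 39.97% over 11318 genes. The least variable members were Med13, Taf9, Gtf2b and Supt6, and the widest ratios of highest to lowest library among members of at least 5 TPM and above 0 in all were those of Med29, Gtf2h2, Med15, Med10 and Taf5. Without replicate 1 the median over members, those listed at 0 included, was 24.9%. That value is over 2 libraries and is not comparable with those over 3, and none over all genes is given beside it. Of the 73 members above 0 in all libraries, 33 were lowest in replicate 1, 19 in replicate 2 and 21 in replicate 3, and the same counts over all 9119 such genes were 3003, 2750 and 3366.

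**Figure D4:**
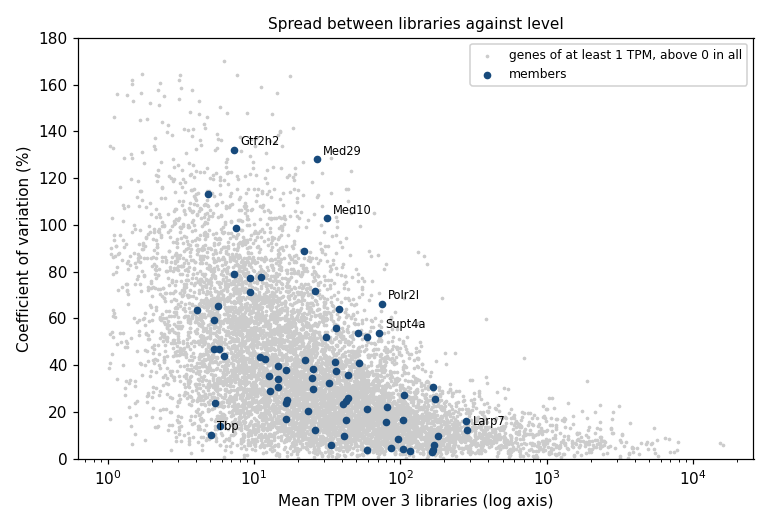
Coefficient of variation between the 3 libraries (%) against mean TPM (log axis) for the 9052 genes of at least 1 TPM and above 0 in every library (grey) and the 73 members among them (blue, with some names). Members of at least 100 TPM have a median of 11.1%, and those between 1 and 10 TPM one of 63.7%.

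Values of 0 were frequent among shorter genes. The exon length had a median of 4038 bases in the 73 members above 0 in all libraries, 3417 bases in the 10 listed at 0 in some and 1998 bases in the 7 listed at 0 in all. Over all genes these medians were 5003, 3705 and 2414 bases. Replicates 1, 2 and 3 listed 11, 13 and 8 members at 0. Across the 90 members, mean TPM and exon length had a Spearman correlation of 0.03, and −0.09 in the 73 members above 0 in all libraries. Over all 20201 genes with an exon length it was 0.35, and over the 12759 of them that were tested 0.0187. These values are across genes, which share libraries and are not replicates.

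The libraries were alike across genes, with Spearman correlations of 0.843 to 0.853 over the genes tested. All 8 satellite cell markers were above 10 TPM, with summed levels of 5772, 5766 and 5335 TPM, most of it from Sdc4 (4272, 4219 and 3915 TPM), and Pax7 had 56.8, 46.4 and 51.1 TPM. Markers of other cells were present too: the 5 fibro-adipogenic markers summed to between 1297 and 1340 TPM, the 5 endothelial markers to between 1489 and 2764 TPM, the 5 leukocyte markers to between 225 and 271 TPM, the 5 fibre markers to between 45.9 and 149.6 TPM and the 5 erythroid markers to between 139 and 453 TPM. Pdgfra, the receptor that defines fibro-adipogenic cells, had 4.98, 0.11 and 0.06 TPM, whereas Col3a1, Dpt, Dcn and Ly6a of the same list averaged 585, 572, 128 and 33.6 TPM. Most of the endothelial sum came from Fabp4 (1750, 1356 and 2587 TPM), and Cldn5, Pecam1, Cdh5 and Kdr averaged 46.2, 40.5, 34.1 and 14.997 TPM. Most of the leukocyte sum came from Cd74 and Lyz2, which averaged 153 and 70.1 TPM, while Ptprc averaged 9.92 TPM. Cd68 had 25.4, 0 and 0 TPM and Emr1 had 0.1, 4.12 and 0 TPM. Of the fibre markers, Tnnc2 had 7, 16.3 and 77.2 TPM and Ckm had 6.56, 0 and 21.6 TPM. Acta1, Myh1 and Myh4 averaged 28.6, 6.85 and 4.66 TPM. Alas2 and Hba-a1 were listed at 0. The part of these cells in the levels of the polymerase machinery was not tested.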

How the data were processed

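Sorted ZsGreen-positive cells gave RNA by Picopure kit, per the labels' protocols. Per the submitters' processing notes, CASAVA 1.8, Bowtie 0.12.9 and RSEM 1.2.3 were used with build mm10; settings and gene annotation were not given in the sources used here. The authors deposited 1 table of TPM with 1 column per library; by its name, it lacks mitochondrial genes and was scaled again, so levels are relative to the genes listed. Depth is unknown, and no counting interval is given.

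Levels were tested as log2(TPM + 0.1), a scale that understates differences of low genes. Using limma 3.58.1 (R 4.3.3), the 12822 genes with a value above 0 anywhere were tested by comparing their mean with 1 and 10 TPM, two-sided, under a trended prior, with Benjamini-Hochberg adjustment across these genes (threshold 0.05). The fit was tested on simulated data. Pair differences were tested with an exact sign-flip permutation test. Positions, exon unions and shared 31-base words are from GENCODE M21 (GRCm38, the assembly of mm10), and start sites from RefSeq (GRCm38.p6).

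Exon length was used because no protein lengths were at hand. Values per library are given for the 3 highest and 2 lowest members of each complex, both genes of each pair, the 5 members with the widest ratio between libraries, and members not above 1 TPM; of other pathway genes the 3 highest of each list and those not above 1 TPM. The values of 1 of these pathway genes are not reported here. Further genes were chosen after their values were seen. The members and lists were chosen with earlier results of these data known. Alternatives were other pseudocounts, filters, scaling and priors, and leaving out each library.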

Additional observations from a re-analysis of the deposited data

How the results depend on the processing

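The counts of members, of all genes and of pathway genes above 1 TPM, and of members and all genes above 10 TPM, stayed within 1.5 times their values under every alternative run: pseudocounts of 0.01 and 1, a filter on a mean of at least 0.1 TPM, no filter, median ratio scaling, a robust limma prior and leaving out each replicate. Members above 1 TPM numbered 65 to 70 and members above 10 TPM 42 to 44. A pseudocount of 1 or no filter ended the calls for Med9 and Med19. Each call above 1 TPM that a member gained on leaving out a replicate came with its lowest library left out. Such a gain follows from the value dropped. The share of TPM held by the members was 0.582% when the 100 most abundant genes were left out of the total. Without replicate 1, 2 or 3 the median coefficient of variation ran from 24.9% to 38.2%, and the correlation of level with exon length from 0.0197 to 0.0858; that correlation was −0.094 in members above 0 in all libraries. With members listed at 0 left out, an alternative chosen after seeing the data, complexes with a range of at least 10 times numbered 4. Some members whose level in the main test was not decided changed side of 1 TPM, whereas Gtf2h2, Gtf2ird2, Med16, Med17, Med29, Nelfa and Taf1b did not. With a pseudocount of 1 the log2 distance from 1 TPM was 0.66 for Med21, 0.61 for Polr2j and 0.44 for Taf6, and with a pseudocount of 0.01 it was −0.72 for Taf6l and −0.13 for Taf9b. On leaving out a replicate it ranged from −1.80 to 0.0235 for Med12l, −2.26 to 1.61 for Med21, −0.21 to 3.94 for Med27, −0.0455 to 3.99 for Polr2f, −0.13 to 3.89 for Polr2g, −0.96 to 1.69 for Taf6, −1.15 to 2.16 for Taf6l and −0.62 to 3.03 for Taf9b, and it was 0.60 for Polr2j without replicate 1 or 2. The log2 difference ranged from −2.97 to 1.84 for Taf6 against Taf6l and from −0.0688 to 0.69 for Gtf2i against Gtf2ird1. The cause was not tested. No paired analysis was possible because there is 1 group. Depth is unknown, so the level at which a 0 can be told from a low level is not known.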
